A study of Mus musculus with 20 samples.

Results

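The genes of cholesterol and fatty acid synthesis were followed in sorted mouse B cells of the germinal centre, in which 1 genotype carried the L252P allele of Myd88. Myd88 is the adaptor that links Toll-like receptors and interleukin-1 family receptors to NF-kB. The set was a list of 36 gene symbols, found by name in the table of every library. Msmo1 and Sc4mol are names of the same gene, which the tables give as Sc4mol, so the list held 35 genes out of 23382 symbols. Of these, 18 encode enzymes of the sterol branch and 11 enzymes of the fatty acid branch. The remaining 6 are control and transport genes (Srebf1, Srebf2, Scap, Insig1, Insig2 and Stard4). The 20 libraries formed 4 groups of 5. Mutant libraries had the genotype Cgamma1Cre:+/- with Myd88L252P:+/-, and control libraries had Cgamma1Cre:+/- with Myd88L252P:WT. Both genotypes therefore carried 1 copy of the Cre. It is driven from the C gamma 1 immunoglobulin locus, which is transcribed in B cells that have entered the germinal centre reaction, so recombination is not limited to the sorted stages. Centrocytes, the cells of the light zone, were sorted as B220+ FAS+ GL7+ CXCR4- CD86+. Centroblasts, which divide in the dark zone, were sorted as B220+ FAS+ GL7+ CXCR4+ CD86-. Ages were not given in the sources used here, and neither was whether each library was made from its own mouse. The p-values below therefore describe the spread between these libraries alone.

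Cells build cholesterol from acetyl-CoA through mevalonate, farnesyl diphosphate and squalene, which is closed into lanosterol and trimmed to cholesterol. Fatty acids are built from the same acetyl-CoA, which is carboxylated to malonyl-CoA, joined by fatty acid synthase, and then elongated and desaturated. Both branches are under the sterol regulatory element-binding proteins, SREBPs, which are held in the endoplasmic reticulum by SCAP and the INSIG proteins when sterols are plentiful. When sterols fall, SCAP carries the SREBPs to the Golgi, where they are cut free to enter the nucleus. SREBP2, encoded by Srebf2, acts mainly on sterol genes and SREBP1, encoded by Srebf1, mainly on fatty acid genes. In B cells these pathways supply membrane for growth and division.

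SREBPs bind sterol regulatory elements close to the start of their target genes, usually beside sites for the factors NF-Y and Sp1. Windows from 250 bases before to 50 bases after each listed transcript start were taken from RefSeq (GRCm38.p6) and matched for 28 of the 35 genes, which had 37 windows. Both strands were searched. The motif TCACNCCAC, a form of the sterol regulatory element, stood in 1 of the 37 windows (2.70%), that of Hmgcs1, against 1.24% of all 32851 windows in the table. The CCAAT box, bound by NF-Y, stood in 24 of the 37 (64.9%), against 37.4% of all windows. The GC box GGGCGG, bound by Sp1, stood in 28 of the 37 (75.7%), against 35.7% of all windows. The motif TCACGTGA, another SREBP1 site form, stood in 0 of the 37, against 0.974% of all windows. By gene, the CCAAT box was found for 14 of 15 sterol branch genes with a window, 5 of 8 fatty acid branch genes and 4 of 5 control and transport genes. The GC box was found for 14 of 15, 4 of 8 and 5 of 5 of the same genes. All windows were counted whether or not their gene was expressed here, so the members were not set against expressed genes alone. A match is a description of the letters and not a measured site. The 250 bases before the listed transcript start are printed for 6 genes whose values are given below, to show how these motifs lie in both branches and in the regulators. For Lss and Fasn that start lies inside the gene bounds given below. The Lss window therefore lies partly, and the Fasn window wholly, within those bounds. Capitals mark the CCAAT box, read on either strand, the GC box, read on either strand, and, in Hmgcs1 alone, the motif TCACNCCAC. No SREBP site form other than TCACNCCAC and TCACGTGA was searched, so other spellings are left in lower case. The windows are chr13:119690101-119690350 (plus strand), chr13:8885356-8885605 (plus), chr10:76531355-76531604 (plus), chr11:120824548-120824797 (minus), chr15:82147019-82147268 (plus) and chr5:28071162-28071411 (plus).
Hmgcs1: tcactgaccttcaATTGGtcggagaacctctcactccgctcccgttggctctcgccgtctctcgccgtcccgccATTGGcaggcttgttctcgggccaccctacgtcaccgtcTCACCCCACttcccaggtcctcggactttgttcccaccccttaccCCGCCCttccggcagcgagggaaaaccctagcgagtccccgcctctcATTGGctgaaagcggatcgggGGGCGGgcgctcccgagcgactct
Idi1: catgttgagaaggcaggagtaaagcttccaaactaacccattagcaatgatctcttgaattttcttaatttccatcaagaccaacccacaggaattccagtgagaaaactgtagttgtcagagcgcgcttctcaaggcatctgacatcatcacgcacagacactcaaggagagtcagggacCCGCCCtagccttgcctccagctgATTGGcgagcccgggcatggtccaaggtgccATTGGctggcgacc
Lss: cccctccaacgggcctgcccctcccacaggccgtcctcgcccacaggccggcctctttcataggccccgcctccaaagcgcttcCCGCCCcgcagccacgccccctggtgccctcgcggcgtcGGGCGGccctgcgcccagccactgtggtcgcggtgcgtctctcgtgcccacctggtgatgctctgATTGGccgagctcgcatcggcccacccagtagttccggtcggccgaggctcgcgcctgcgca
Fasn: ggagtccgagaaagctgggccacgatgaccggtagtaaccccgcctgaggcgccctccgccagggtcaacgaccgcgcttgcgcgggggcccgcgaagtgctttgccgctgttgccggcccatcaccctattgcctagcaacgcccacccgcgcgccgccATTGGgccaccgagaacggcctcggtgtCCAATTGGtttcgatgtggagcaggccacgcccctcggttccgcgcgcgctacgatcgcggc
Srebf2: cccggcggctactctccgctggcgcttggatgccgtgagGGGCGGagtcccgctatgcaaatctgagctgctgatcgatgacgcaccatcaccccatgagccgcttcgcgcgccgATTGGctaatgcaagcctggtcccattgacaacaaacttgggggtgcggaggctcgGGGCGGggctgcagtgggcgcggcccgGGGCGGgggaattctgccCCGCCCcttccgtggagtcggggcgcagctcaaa
Insig1: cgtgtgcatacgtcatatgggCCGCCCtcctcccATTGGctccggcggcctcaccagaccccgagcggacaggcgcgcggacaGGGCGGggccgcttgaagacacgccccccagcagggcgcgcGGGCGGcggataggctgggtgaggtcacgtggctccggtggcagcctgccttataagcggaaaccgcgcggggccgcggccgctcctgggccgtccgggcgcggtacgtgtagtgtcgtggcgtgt
In the Fasn window a CCAAT box on each strand overlap, which gives its longest run of capitals. No GC box of this spelling stood in that window.

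Values are TPM, a measure of transcript abundance that is corrected for transcript length and has a fixed total in every library. They keep no read depth, so no counting interval can be given. Myd88 itself (88.8 ± 4.07 TPM in mutant and 74.4 ± 4.76 in control centrocytes, 77.2 ± 11.9 in mutant and 82.5 ± 9.37 in control centroblasts, SD, n = 5 each) cannot check the labels, since the allele is a coding change. The summed level of 5 B cell markers was 8778 to 11883 TPM in the 20 libraries and that of T cell markers 0.569 to 5.68 TPM. Germinal centre B cell markers, 6 genes, summed to 1275 to 1575 TPM in mutant and 1528 to 1701 TPM in control centrocytes. In centroblasts these 6 summed to 1432 to 2343 TPM in mutants and 2077 to 2302 TPM in controls. Macrophage and neutrophil markers, 12 genes with none at 0 throughout a group, summed to 77.2 to 181 TPM in mutant and 94.8 to 159 TPM in control centrocytes. In centroblasts they summed to 37.8 to 81.3 TPM in mutants and 39.4 to 56.4 TPM in controls. Erythroid markers summed to 233 to 579.7 TPM in mutant and 41.6 to 273 TPM in control centrocytes, and to 323 to 808 TPM in mutant and 22.8 to 270.4 TPM in control centroblasts, with Hba-a1, Hba-a2 and Hbb-b2 at 0 in all groups. Mitosis genes summed to 1508 to 2128 TPM in mutant and 1919 to 2245 TPM in control centrocytes, and to 1884 to 2967 TPM in mutant and 2512 to 3167 TPM in control centroblasts. Mutant centroblast libraries 4 and 5 stood apart, with 11.2% and 15.1% of their TPM in ribosomal protein genes, against 6.42% to 8.81% in the other 18 libraries.

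All 35 genes were expressed. Averaged over the 20 libraries, levels ran from 346 TPM for Scd1, the stearoyl-CoA desaturase, to 5.20 TPM for Elovl6, which elongates palmitate. Srebf2 was second, at 271 TPM, and the cytosolic HMG-CoA synthase Hmgcs1 came next, at 189.6 TPM. They were followed by ATP citrate lyase Acly (175), the methylsterol oxidase Sc4mol (169.9) and the lanosterol demethylase Cyp51 (168). Both branches thus held abundant and scarce transcripts: Tm7sf2, a sterol reductase, averaged 10.2 TPM and Acaca, acetyl-CoA carboxylase, 9.89 TPM. Srebf1, at 63.8 TPM, stood below Srebf2 in every library.

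**Figure D1:**
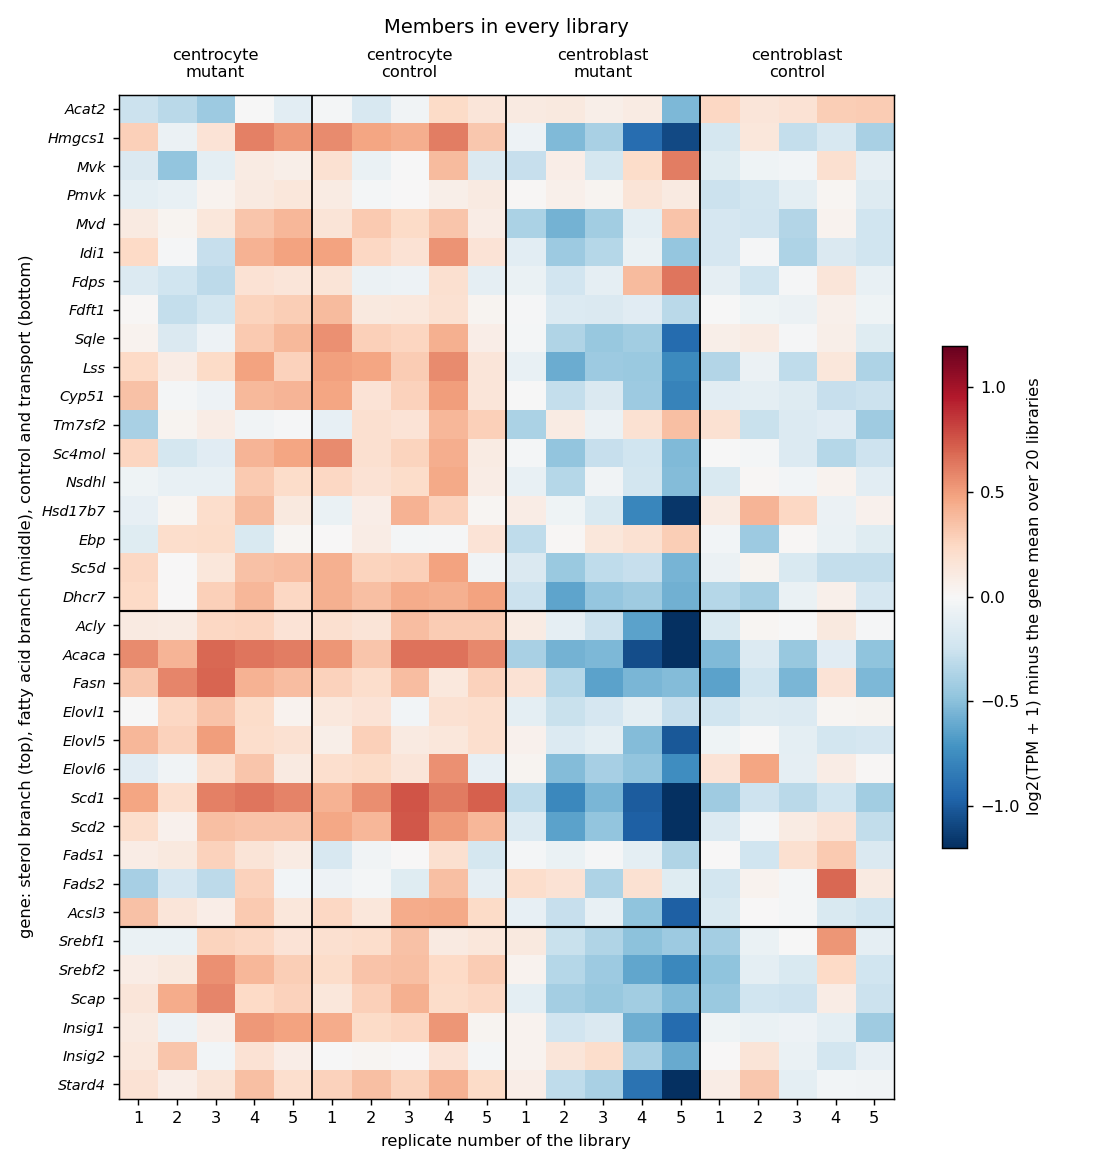
Each row is 1 of the 35 genes and each column 1 library; colour gives log2(TPM + 1) minus the mean of that gene over the 20 libraries. Most rows are redder in centrocytes (left 10 columns) than in centroblasts (right 10), Acat2 is not, and mutant centroblast libraries 4 and 5 are the bluest columns for Scd1, Scd2, Acaca and Stard4 and the reddest of their group for Mvk and Fdps.

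The first comparison was between the zones, centrocytes against centroblasts, within each genotype. In mutants 25 of the 35 genes rose in centrocytes and 0 fell (limma on log2(TPM + 1), Benjamini-Hochberg adjusted p under 0.05). They were 11 of 18 sterol branch genes, 9 of 11 fatty acid branch genes and 5 of 6 control and transport genes. In controls 19 rose and 0 fell, with 10, 6 and 3 genes from the same classes, and 18 genes rose in both genotypes. The share of all genes that rose in both genotypes is not given here. Among all 11386 genes tested, 48.8% rose and 12.6% fell in mutant centrocytes (61.5% in either direction), and 21.2% rose and 9.48% fell in control centrocytes (30.7%). The median log2 fold change of the 35 genes was 0.54 in mutants and 0.30 in controls, against 0.34 in mutants and 0.14 in controls for all genes tested. The groups of 5 did not overlap for 15 of the 35 genes in mutants and 16 in controls, all higher in centrocytes. Of all genes tested, 28.7% lay wholly higher and 7.91% wholly lower in mutant centrocytes, and 17% and 9.51% in control centrocytes. Fewer cells making a transcript and less of it per cell cannot be told apart in these pools.

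Part of that rise depends on how libraries are scaled. Each library was divided by its median ratio to a common set of levels, which brings the median of all genes to 0.014 in mutants and 0.0039 in controls. In mutant centrocytes 13 genes were then higher and 7 lower: Acat2, Mvk, Pmvk, Fdps, Tm7sf2 and Ebp of the sterol branch and Fads2 of the fatty acid branch. In control centrocytes 11 were higher and 1, Acat2, lower. Of all genes, 29.6% were then higher and 28.9% lower in mutant centrocytes, and 17.9% higher and 17.7% lower in control centrocytes. The 12 genes no longer called as higher in mutants were Cyp51, Sc4mol, Sc5d, Mvd, Nsdhl, Idi1, Sqle, Hsd17b7, Elovl1, Elovl6, Insig1 and Srebf1. The 8 no longer called in controls were Sc4mol, Sc5d, Mvd, Nsdhl, Idi1, Pmvk, Elovl1 and Insig1. Over all genes the split of calls went with it, since 79.5% of calls in mutants and 69.2% in controls were higher in centrocytes as deposited, and 50.6% in mutants and 50.3% in controls after scaling. Higher in both genotypes, as deposited and scaled, were 10 genes. They were Acaca, Acsl3, Fasn, Scd1 and Scd2 of the fatty acid branch, Hmgcs1, Lss and Dhcr7 of the sterol branch, and Srebf2 and Scap. The share of all genes that met all of these calls together is not given here. This count therefore describes which calls held and is not a result about the members. Without mutant centroblast libraries 4 and 5, 21 genes were higher and 1 lower in mutant centrocytes, and 24 higher and 1 lower in control centrocytes, with Acat2 the lower gene in both. Of all genes, 35.9% were higher and 14.9% lower in mutant centrocytes in that fit, and 33.4% higher and 14.3% lower in control centrocytes. Hsd17b7, Nsdhl, Elovl6 and Srebf1 lost their call in mutants, and Sqle, Tm7sf2, Acly, Elovl5 and Stard4 gained one in controls. Macrophage and neutrophil markers were also higher in centrocytes, 7 of 9 tested in each genotype, and 7 of 10 mitosis genes were lower in mutant and 6 of 10 in control centrocytes. Their part in the zone differences was not tested.

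**Figure D2:**
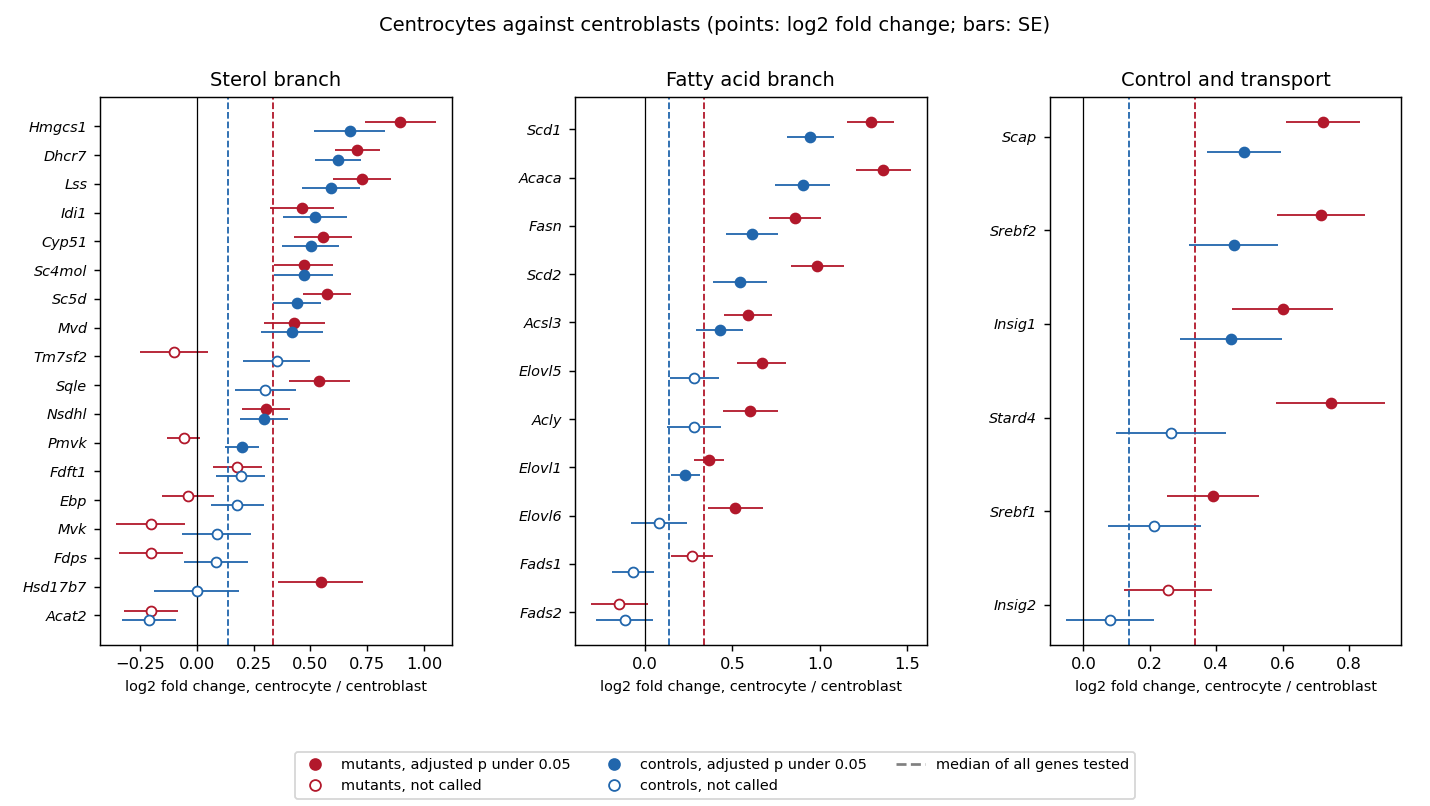
Log2 fold change of each gene, centrocytes over centroblasts, with its SE, in mutants (red) and controls (blue); filled points passed an adjusted p of 0.05 and dashed lines are the medians of all genes tested (0.34 in mutants, 0.14 in controls). No filled point lies below 0, and Acaca and Scd1 lie farthest to the right in both genotypes. After median-of-ratios scaling, which is not drawn, 7 genes are called lower in mutants and 1, Acat2, in controls, and Nsdhl in mutants is at -0.048.

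In the sterol branch the rise was largest in controls for Hmgcs1, Dhcr7, Lss and Idi1. Hmgcs1 (chr13:119690351-119708260), which makes HMG-CoA at the head of the mevalonate pathway, was at 219, 172, 201, 274 and 258 TPM in mutant centrocytes, against 173, 124, 137, 94.6 and 84.6 TPM in mutant centroblasts. Control centrocytes had 267, 249.96, 244, 275 and 225 TPM, against 155, 197, 147, 158 and 137 TPM in control centroblasts. Every control centrocyte library was above every control centroblast library, while the lowest mutant centrocyte and the highest mutant centroblast library overlapped narrowly. In the fit, the log2 fold change was 0.90 ± 0.16 SE in mutants (adjusted p = 6.71e-05) and 0.67 ± 0.16 SE in controls (adjusted p = 0.00248).

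Dhcr7 (chr7:143823167-143848410) encodes the reductase that makes cholesterol from its last precursor. It was at 48.5, 41.1, 50.1, 54.1 and 48.9 TPM in mutant centrocytes, against 33.9, 26.1, 29.4, 30.2 and 27.1 TPM in mutant centroblasts. In controls the values were 55.4, 53.0, 56.0, 55.3 and 57.6 TPM in centrocytes, against 32.0, 30.7, 38.7, 42.7 and 35.4 TPM in centroblasts. The zones did not overlap in either genotype, and the control centrocytes were the tightest of the 4 groups. Its log2 fold change was 0.71 ± 0.10 SE in mutants (adjusted p = 7.71e-06) and 0.62 ± 0.10 SE in controls (adjusted p = 8.72e-05).

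Lss (chr10:76531565-76557139), lanosterol synthase, closes the sterol rings. Mutant centrocytes had 39.5, 35.6, 39.3, 46.9 and 40.7 TPM, against 31.3, 21.8, 24.5, 24.2 and 19.3 TPM in mutant centroblasts. Control centrocytes had 47.2, 46.6, 41.5, 49.8 and 37.1 TPM, against 25.8, 31.7, 26.9, 36.7 and 25.5 TPM in control centroblasts. In both genotypes the lowest centrocyte library was above the highest centroblast library, though by under 1 TPM in controls. The log2 fold change was 0.73 ± 0.13 SE (adjusted p = 7.32e-05) in mutants and 0.59 ± 0.13 SE (adjusted p = 0.00148) in controls.

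Idi1 (chr13:8885606-8892396), the isopentenyl diphosphate isomerase, was scarcer. Mutant centrocytes had 17.7, 14.7, 12.1, 20.2 and 21.1 TPM, against 13.5, 10.7, 11.5, 14.01 and 10.5 TPM in mutant centroblasts. Control centrocytes had 21.1, 17.8, 16.8, 22.1 and 16.8 TPM, against 12.8, 14.7, 11.2, 13.1 and 12.4 TPM in control centroblasts. The mutant groups overlapped and the control groups did not. In the fit, the log2 fold change was 0.46 ± 0.14 SE in mutants (adjusted p = 0.00735) and 0.52 ± 0.14 SE in controls (adjusted p = 0.00748), and after median-of-ratios scaling it was 0.13 in mutants (adjusted p = 0.493) and 0.39 in controls (adjusted p = 0.0585).

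The other sterol genes that rose in controls were Cyp51 (0.50 on the log2 scale), Sc4mol (0.47), the sterol desaturase Sc5d (0.44), the mevalonate diphosphate decarboxylase Mvd (0.42), the sterol dehydrogenase Nsdhl (0.30) and the phosphomevalonate kinase Pmvk (0.20). The first 5 also rose in mutants, by 0.30 to 0.57, and Nsdhl there was -0.048 after median-of-ratios scaling. Pmvk was called in controls alone (adjusted p = 0.0476) and was lost in 15 of 20 fits that left out 1 library. In mutants it was -0.059. In controls Nsdhl was lost in 7 and Mvd in 3 of these 20 fits. Sqle, squalene epoxidase, averaged 126 TPM in mutant centrocytes against 87.1 TPM in mutant centroblasts (log2 0.54, adjusted p = 0.00177), and was not called in controls (log2 0.30, adjusted p = 0.0911). Hsd17b7, a sterol ketoreductase, had a log2 fold change of 0.55 in mutants and -0.0011 in controls. Its 7.70 and 10.4 TPM in mutant centroblast libraries 5 and 4 were below the 16.2 to 19.9 TPM of the other 3. The mutant call was lost without both of these libraries (0.17, adjusted p = 0.277), without library 4 (adjusted p = 0.0509), without library 5 (adjusted p = 0.0509) and with only the mutant libraries (adjusted p = 0.0611).

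Not every sterol gene rose. Acat2, the thiolase that joins the first acetyl-CoA units, averaged 54.7 TPM in mutant centrocytes against 63.6 TPM in mutant centroblasts (log2 -0.20, adjusted p = 0.145). In controls the means were 65.5 TPM in centrocytes and 75.6 TPM in centroblasts (log2 -0.21, adjusted p = 0.181), and with median-of-ratios scaling Acat2 was lower in centrocytes of both genotypes (-0.55 in mutants, adjusted p = 2.42e-04, and -0.35 in controls, adjusted p = 0.0162). Mevalonate kinase Mvk, farnesyl diphosphate synthase Fdps and the sterol isomerase Ebp had log2 fold changes of -0.20, -0.20 and -0.039 in mutants and 0.087, 0.082 and 0.18 in controls, with no call. Squalene synthase Fdft1 (0.18 in mutants, 0.19 in controls) and Tm7sf2 (-0.10 and 0.35) were not called either. Of the 9 genes with no zone call in either genotype, 6 were in this branch.

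In the fatty acid branch Scd1 and Acaca had the largest zone differences of all 35 genes. Scd1 (chr19:44394450-44407709), which puts the double bond into stearate, was at 442, 365, 484, 496 and 481 TPM in mutant centrocytes, against 257, 186, 217, 159 and 127 TPM in mutant centroblasts. In controls it was at 426, 469, 536, 489 and 523 TPM in centrocytes, against 236, 267, 254, 269 and 238 TPM in centroblasts. The zones were far apart in both genotypes, with no overlap. Its log2 fold change was 1.29 ± 0.13 SE in mutants (adjusted p = 1.56e-07) and 0.95 ± 0.13 SE in controls (adjusted p = 2.13e-05).

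Acaca (chr11:84129635-84401651), which makes malonyl-CoA and commits acetyl-CoA to fatty acids, was far lower in level. It had 13.8, 12.2, 15.1, 14.6 and 14.3 TPM in mutant centrocytes, against 6.65, 5.74, 5.86, 3.77 and 2.95 TPM in mutant centroblasts. Control centrocytes had 13.4, 11.6, 14.7, 14.7 and 13.9 TPM, against 5.93, 7.92, 6.28, 8.11 and 6.17 TPM in control centroblasts. No library of either zone reached the other zone. The log2 fold change was 1.36 ± 0.16 SE (adjusted p = 5.27e-07) in mutants and 0.90 ± 0.16 SE (adjusted p = 1.79e-04) in controls.

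Fasn (chr11:120805958-120825166), the synthase that builds palmitate, was at 59.4, 71.2, 77.3, 63.3 and 61.1 TPM in mutant centrocytes, against 53.4, 37.0, 29.8, 31.8 and 32.6 TPM in mutant centroblasts. Control centrocytes had 57.3, 54.7, 61.3, 51.4 and 57.2 TPM, against 29.9, 39.8, 31.9, 53.0 and 32.2 TPM in control centroblasts. Control centroblast library 4 overlapped the control centrocytes, and mutant centroblast library 1, at the same level, stayed below the mutant centrocytes. In the fit, the log2 fold change was 0.86 ± 0.15 SE in mutants (adjusted p = 7.14e-05) and 0.61 ± 0.15 SE in controls (adjusted p = 0.00392).

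Scd2 (chr19:44293676-44306864), the second desaturase, lies beside Scd1 on chromosome 19 and is close to it in sequence, so reads of the pair can be split between them. It was at 152, 136, 169, 166 and 166 TPM in mutant centrocytes, against 117, 83.6, 94.3, 66.1 and 50.5 TPM in mutant centroblasts. Control centrocytes had 182, 174, 219.9, 187 and 173 TPM, against 117, 130.2, 141, 147 and 107 TPM in control centroblasts. The zones did not overlap in either genotype. Its log2 fold change was 0.99 ± 0.15 SE (adjusted p = 2.26e-05) in mutants and 0.55 ± 0.15 SE (adjusted p = 0.0103) in controls.

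The acyl-CoA synthetase Acsl3 and the elongase Elovl1 rose in both genotypes, by 0.59 and 0.37 on the log2 scale in mutants and 0.43 and 0.23 in controls. Elovl1 was no longer called in either genotype after median-of-ratios scaling (0.012 in mutants and 0.09 in controls). In controls the Elovl1 call was also lost in 8 of 20 fits that left out 1 library, with adjusted p up to 0.109. That call was lost too with the replicate number as a block, and in limma without trend and robust (adjusted p = 0.05002, just above the threshold). The Acsl3 call in controls was lost in 3 of these 20 fits. Acly, which supplies cytosolic acetyl-CoA to both branches, had 189.9 to 222 TPM in control centrocytes and 149.7 to 185 TPM in control centroblasts. These groups did not overlap, and the test was not passed (log2 0.28, adjusted p = 0.176). With the same log2 value it was passed without mutant centroblast libraries 4 and 5 (adjusted p = 0.00297), without library 5 alone (adjusted p = 0.0256) and with only the control libraries (adjusted p = 0.00437). In mutants Acly rose by 0.60, Elovl5 by 0.67 and Elovl6 by 0.52, where Elovl6 was no longer called without mutant centroblast libraries 4 and 5 (adjusted p = 0.0628) or after scaling (0.23, adjusted p = 0.149). Fads1 and Fads2, the desaturases that make polyunsaturated fatty acids, were not called. Fads1 had 17.98, 18.3, 20.6, 18.8 and 18.1 TPM in mutant centrocytes, against 16.5, 15.8, 16.6, 15.5 and 12.9 TPM in mutant centroblasts, without overlap (log2 0.27 ± 0.12 SE, adjusted p = 0.0561). In controls, where the groups overlapped, it was -0.07. The call for Fads1 in mutants was gained without control centroblast library 2 (adjusted p = 0.046) or 4 (adjusted p = 0.0426) and in limma without trend and robust (adjusted p = 0.0427). After median-of-ratios scaling it was -0.071. Fads2 was -0.15 in mutants and -0.12 in controls.

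Among the regulators Srebf2 and Scap rose in both genotypes. Srebf2 (chr15:82147269-82205379) was at 279, 286, 385, 348 and 323 TPM in mutant centrocytes, against 271, 207, 194, 171 and 153 TPM in mutant centroblasts. Control centrocytes had 307, 334, 338, 311 and 325 TPM, against 188, 242, 231, 310.0 and 223 TPM in control centroblasts. Only control centroblast library 4 reached the centrocyte range of its genotype, and the mutant groups did not overlap. The log2 fold change was 0.72 ± 0.13 SE in mutants (adjusted p = 1.29e-04) and 0.45 ± 0.13 SE in controls (adjusted p = 0.013).

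Scap (chr9:110333288-110384949), the sterol sensor that escorts SREBPs, was at 33.0, 41.0, 45.2, 35.3 and 36.4 TPM in mutant centrocytes, against 27.5, 22.2, 21.5, 22.1 and 20.4 TPM in mutant centroblasts. Control centrocytes had 32.8, 36.7, 40.3, 34.98 and 35.5 TPM, against 21.6, 25.1, 25.0, 31.7 and 24.7 TPM in control centroblasts. The zones did not overlap in either genotype. In the fit, the log2 fold change was 0.72 ± 0.11 SE (adjusted p = 2.11e-05) in mutants and 0.48 ± 0.11 SE (adjusted p = 0.00251) in controls.

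Insig1 (chr5:28071412-28078662), a retention protein and itself an SREBP target, had 94.1, 83.7, 92.3, 126 and 122 TPM in mutant centrocytes, against 89.8, 74.4, 77.2, 57.9 and 45.5 TPM in mutant centroblasts. Control centrocytes had 119.5, 103, 105, 127 and 89.8 TPM, against 84.4, 82.8, 84.0, 80.7 and 64.9 TPM in control centroblasts. Mutant centroblast library 1 lay within the range of the mutant centrocytes, and the control groups did not overlap. Insig1 rose by 0.60 ± 0.15 SE in mutants (adjusted p = 0.00211) and 0.45 ± 0.15 SE in controls (adjusted p = 0.0311). After median-of-ratios scaling it was 0.25 in mutants (adjusted p = 0.105) and 0.30 in controls (adjusted p = 0.0707). The control call was also lost without control centroblast library 5 (adjusted p = 0.0916) and without control centrocyte libraries 1, 3 or 4 (adjusted p = 0.0636, 0.0527 and 0.081).

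Srebf1 (chr11:60199084-60224186) had 59.3, 59.1, 75.5, 74.6 and 70.3 TPM in mutant centrocytes, against 68.2, 52.0, 48.5, 44.4 and 46.0 TPM in mutant centroblasts. Control centrocytes had 71.9, 72.5, 80.4, 67.6 and 68.9 TPM, against 46.9, 59.2, 62.6, 90.7 and 58.2 TPM in control centroblasts. The groups overlapped in both genotypes, in controls through centroblast library 4, which was the highest of all 20. Srebf1 rose by 0.39 ± 0.14 SE in mutants (adjusted p = 0.0195), and after scaling it was 0.038 (adjusted p = 0.816). Without mutant centroblast libraries 4 and 5 it was 0.27 (adjusted p = 0.136). In controls it was 0.21 ± 0.14 SE (adjusted p = 0.249, and 0.35 with adjusted p = 0.0375 without that library).

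Insig2 (chr1:121304353-121332662), the second retention protein, was nearly level. It had 27.7, 32.2, 24.8, 28.8 and 26.8 TPM in mutant centrocytes, against 26.1, 28.1, 29.6, 19.1 and 16.3 TPM in mutant centroblasts. Control centrocytes had 25.2, 25.8, 25.5, 28.5 and 25.0 TPM, against 25.5, 28.3, 23.9, 21.6 and 23.7 TPM in control centroblasts. The zones overlapped throughout. Its log2 fold change was 0.25 ± 0.13 SE in mutants (adjusted p = 0.102, -0.088 after scaling) and 0.08 ± 0.13 SE in controls (adjusted p = 0.678, -0.058 after scaling).

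**Figure D3:**
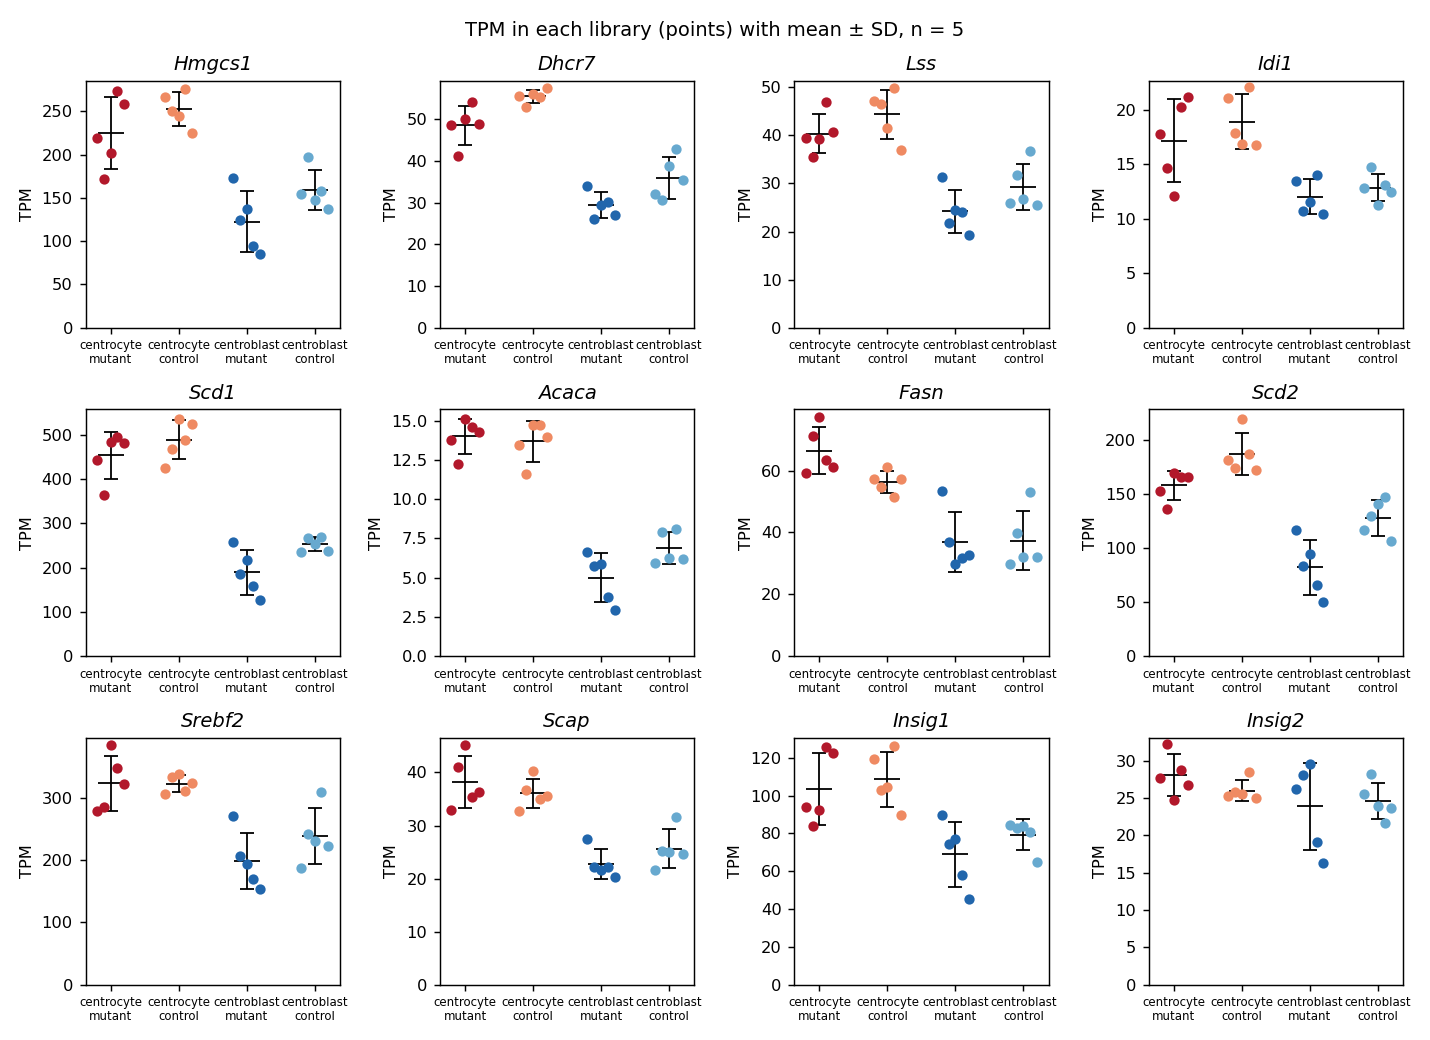
TPM of 12 genes in each library (points, replicates 1 to 5 from left to right within a group) with the mean and SD of each group of 5; the upper row is sterol branch, the middle row fatty acid branch, the lower row regulators. Scd1 lies between 365 and 536 TPM in all centrocytes and between 127 and 269 TPM in all centroblasts, whereas the 4 groups of Insig2 overlap between 16.3 and 32.2 TPM.

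The branches were then compared as a whole, by the mean of log2(TPM + 1) over their genes in each library, as a description without a test. The sterol branch was at 5.85, 5.73, 5.80, 6.08 and 6.06 in mutant centrocytes, against 5.70, 5.55, 5.60, 5.63 and 5.49 in mutant centroblasts. In controls it was at 6.09, 5.99, 6.01, 6.18 and 5.93 in centrocytes, against 5.72, 5.74, 5.71, 5.79 and 5.64 in centroblasts. Mutant centrocyte libraries 1 to 3 lay below libraries 4 and 5 and below all 5 control centrocytes. The zone difference in the sterol mean was 0.31 in mutants and 0.32 in controls, and after median-of-ratios scaling -0.039 in mutants and 0.18 in controls.

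The fatty acid branch was at 5.67, 5.66, 5.83, 5.84 and 5.73 in mutant centrocytes, against 5.45, 5.17, 5.16, 4.97 and 4.65 in mutant centroblasts. In controls it was at 5.70, 5.71, 5.80, 5.86 and 5.72 in centrocytes, against 5.27, 5.45, 5.36, 5.56 and 5.29 in centroblasts. The zones did not overlap, and the mutant centroblasts were spread most, with library 1 within the control range and library 5 far below it. The zone difference in the fatty acid mean was 0.67 in mutants and 0.37 in controls, and after scaling 0.33 in mutants and 0.24 in controls. Without mutant centroblast libraries 4 and 5 it was 0.49 in mutants.

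In TPM, the sterol genes summed to 1472 in mutant and 1610.4 in control centrocytes, and to 1149.6 in mutant and 1249.6 in control centroblasts. The fatty acid genes summed to 1127 in mutant and 1187 in control centrocytes, and to 629.8 in mutant and 800.1 in control centroblasts. Between zones, the sum was 1.28-fold higher in mutant centrocytes for the sterol genes, with overlap, and 1.79-fold higher for the fatty acid genes. In control centrocytes it was 1.29-fold and 1.48-fold higher, without overlap. The sterol mean exceeded the fatty acid mean by 0.16 ± 0.14 (SD, n = 5) in mutant and 0.28 ± 0.08 in control centrocytes, and by 0.52 ± 0.23 in mutant and 0.34 ± 0.08 in control centroblasts. The 4 ranges overlapped in every zone and genotype comparison.

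**Figure D4:**
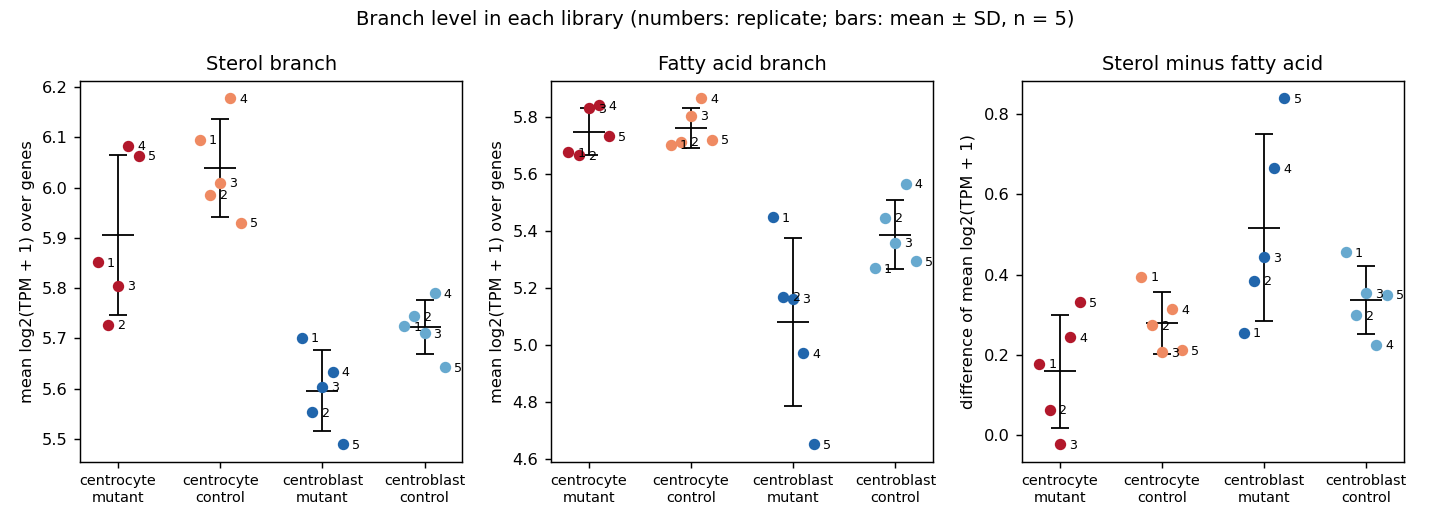
Mean of log2(TPM + 1) over the 18 sterol and the 11 fatty acid genes, and their difference, in each library (points numbered by replicate) with the mean and SD of each group of 5. All centrocyte libraries lie above all centroblast libraries of their genotype in both branches as deposited, and mutant centroblast libraries 4 and 5 have the largest excess of the sterol over the fatty acid mean; after median-of-ratios scaling the sterol difference between zones is -0.039 in mutants.

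The second comparison was between genotypes. In centroblasts 0 of the 35 genes rose and 2 fell in mutants, against 0.905% and 3.38% of all genes tested (4.29% in either direction). The median log2 fold change of the 35 genes was -0.19, against -0.16 for all genes, and 15 of the 35 lay above the all-gene median. At an unadjusted p under 0.05 there were 1 higher and 12 lower, 13 of 35, against 30.3% of all genes in either direction. Erythroid markers moved with genotype too, with 3 of 4 tested higher in mutant centroblasts and 1 of 4 in mutant centrocytes, and their part in the genotype differences was not tested. The 2 genes that fell were Scd2 and Stard4, which encodes a carrier of cholesterol between membranes. After median-of-ratios scaling Scd2 (-0.50, adjusted p = 0.0119) and Stard4 (-0.42, adjusted p = 0.0317) were still lower, Pmvk was called higher (0.40, adjusted p = 0.0477), and the share of higher calls over all genes was 44.5%, against 21.1% as deposited. In that fit 2.51% of all genes were higher and 3.13% lower.

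Scd2 was at 117, 83.6, 94.3, 66.1 and 50.5 TPM in mutant centroblasts, against 117, 130.2, 141, 147 and 107 TPM in control centroblasts. Mutant library 1 lay within the control range, libraries 2 and 3 below it and libraries 4 and 5 lowest. Scd2 fell by 0.68 ± 0.15 SE on the log2 scale (adjusted p = 0.0197). Without mutant libraries 4 and 5 it was -0.39 (adjusted p = 0.0643), and in a fit of the centroblast libraries alone the adjusted p was 0.17. The call was also lost without control centroblast library 2 (adjusted p = 0.0513), control centroblast library 4 (adjusted p = 0.056) or mutant centroblast library 4 (adjusted p = 0.053).

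Stard4 was at 56.2, 42.8, 40.4, 28.3 and 21.8 TPM in mutant centroblasts, against 56.6, 66.8, 49.0, 52.1 and 51.6 TPM in control centroblasts. Again mutant library 1 was at the control level and libraries 4 and 5 were the lowest. Stard4 fell by 0.60 ± 0.16 SE on the log2 scale (adjusted p = 0.0442). Without mutant libraries 4 and 5 it was -0.25 (adjusted p = 0.239), in a fit of the centroblast libraries alone the adjusted p was 0.269, and the call was lost in 17 of the 20 fits that left out 1 library (adjusted p up to 0.127, without control centroblast library 2). Its zone difference was 0.75 ± 0.16 SE in mutants (adjusted p = 6.50e-04) and 0.26 ± 0.16 SE in controls (adjusted p = 0.23), with means of 61.1 TPM in mutant and 66.2 TPM in control centrocytes.

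No other member passed in centroblasts in this fit. Hsd17b7 averaged 14.4 ± 5.15 TPM in mutants and 20.8 ± 2.79 TPM in controls (log2 -0.57, adjusted p = 0.0735). Elovl6 averaged 3.59 ± 0.974 TPM in mutants and 5.66 ± 1.05 TPM in controls (log2 -0.55, adjusted p = 0.0506). Scd1 averaged 189 ± 50.6 TPM in mutants and 253 ± 15.6 TPM in controls (log2 -0.46, adjusted p = 0.0557), and Sqle 87.1 ± 19.0 TPM and 118 ± 8.11 TPM (log2 -0.45, adjusted p = 0.0558). Acat2 was the 1 member whose groups did not overlap, at 69.2, 69.3, 67.2, 68.7 and 43.6 TPM in mutants, against 76.2, 71.0, 72.5, 78.8 and 79.5 TPM in controls (adjusted p = 0.14), while 2.99% of all genes had mutants wholly below and 0.755% wholly above controls. Positive values were found for 5 sterol genes, Pmvk (0.22), Tm7sf2 (0.20), Ebp (0.20), Fdps (0.19) and Mvk (0.11), with no call. All 11 fatty acid genes had negative values, with a median of -0.26, while 7 were negative after median-of-ratios scaling, with a median of -0.082. The sterol genes had a median of -0.15, with 13 of 18 negative, and after scaling 0.032, with 8 negative.

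Mutant centroblast libraries 4 and 5 moved with these differences. Their mean minus that of mutant libraries 1 to 3 was negative for 27 of the 35 genes, near the share over all genes tested, 8868 of 11386. The median was -0.27 for the members (range -0.93 to 0.65), against -0.38 for all genes tested. Without libraries 4 and 5, 0 of the 35 genes were called in centroblasts, against 2.15% of all genes higher and 1.45% lower. The members' median was then -0.10 and that of all genes -0.019. The number of members called was 0 to 14 when 1 library at a time was left out. It was 14 without mutant centroblast library 1, 4 without mutant centroblast library 2, 0 without mutant centroblast library 4, control centroblast library 2 or control centroblast library 4, 3 without mutant centroblast library 3, and 1 in each other case. The shares of all genes in these fits are not given here. These counts therefore describe how unsteady the calls were and are not a result about the members.

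In centrocytes 0 of the 35 genes were called between genotypes by limma, against 1.2% of all genes tested (0.896% higher and 0.307% lower). At an unadjusted p under 0.05 there were 0 higher and 1 lower, Acat2, against 9.61% of all genes. All 18 sterol genes had negative values, as deposited and after median-of-ratios scaling, between -0.26 and -0.019 with a median of -0.15 as deposited, and none lay above the all-gene median of 0.016. These genes share the same libraries, so their signs are not independent. Negative values were also found for 6 of 6 germinal centre B cell markers (median -0.21) and 9 of 10 mitosis genes (median -0.19). All 4 tested erythroid and all 4 tested plasma cell markers were positive. Acat2 averaged 54.7 ± 6.498 TPM in mutants and 65.5 ± 7.70 TPM in controls (log2 -0.26 ± 0.12 SE, adjusted p = 0.483). Tm7sf2 (-0.25), Sqle (-0.22) and Dhcr7 (-0.19) came next. The sterol mean was 5.91 ± 0.16 in mutant and 6.04 ± 0.10 in control centrocytes (SD, n = 5), and the ranges overlapped through mutant libraries 4 and 5. The fatty acid mean was 5.75 ± 0.08 in mutant and 5.76 ± 0.07 in control centrocytes.

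Within the fatty acid branch the signs were mixed. Scd2 was the only member with groups that did not overlap, at 152, 136, 169, 166 and 166 TPM in mutant centrocytes, against 182, 174, 219.9, 187 and 173 TPM in control centrocytes (log2 -0.24 ± 0.15 SE, adjusted p = 0.766), while 1.99% of all genes had mutants wholly below and 2.63% wholly above controls. Fasn was at 66.5 ± 7.56 TPM in mutants and 56.4 ± 3.63 TPM in controls (log2 0.23, adjusted p = 0.776), with mutant library 1 inside the control range. Fads1 (0.20) and Elovl5 (0.16) were also on the positive side, with no call. Stard4 averaged 61.1 TPM in mutants and 66.2 TPM in controls (log2 -0.11).

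The difference between the genotype effects, centrocytes minus centroblasts, was called for 0 of the 35 genes by limma, against 0.0176% of all genes tested. At an unadjusted p under 0.05 there were 1 higher and 2 lower, against 11.6% of all genes. The difference was 0.44 ± 0.22 SE for Scd2 (adjusted p = 0.403) and 0.48 ± 0.23 SE for Stard4 (adjusted p = 0.403), so neither fall was shown to differ between the zones. The same test covers the zone differences, so the 7 members called between zones in mutants but not in controls, and Pmvk, called in controls but not in mutants, were not shown to differ between genotypes. Of those 7, Acly, Elovl5, Sqle and Stard4 were also called in controls without mutant centroblast libraries 4 and 5 (adjusted p = 0.00297, 0.00372, 0.0268 and 0.0219). The median was 0.0081 for the sterol genes and 0.34 for the fatty acid genes, against 0.18 for all genes.

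**Figure D5:**
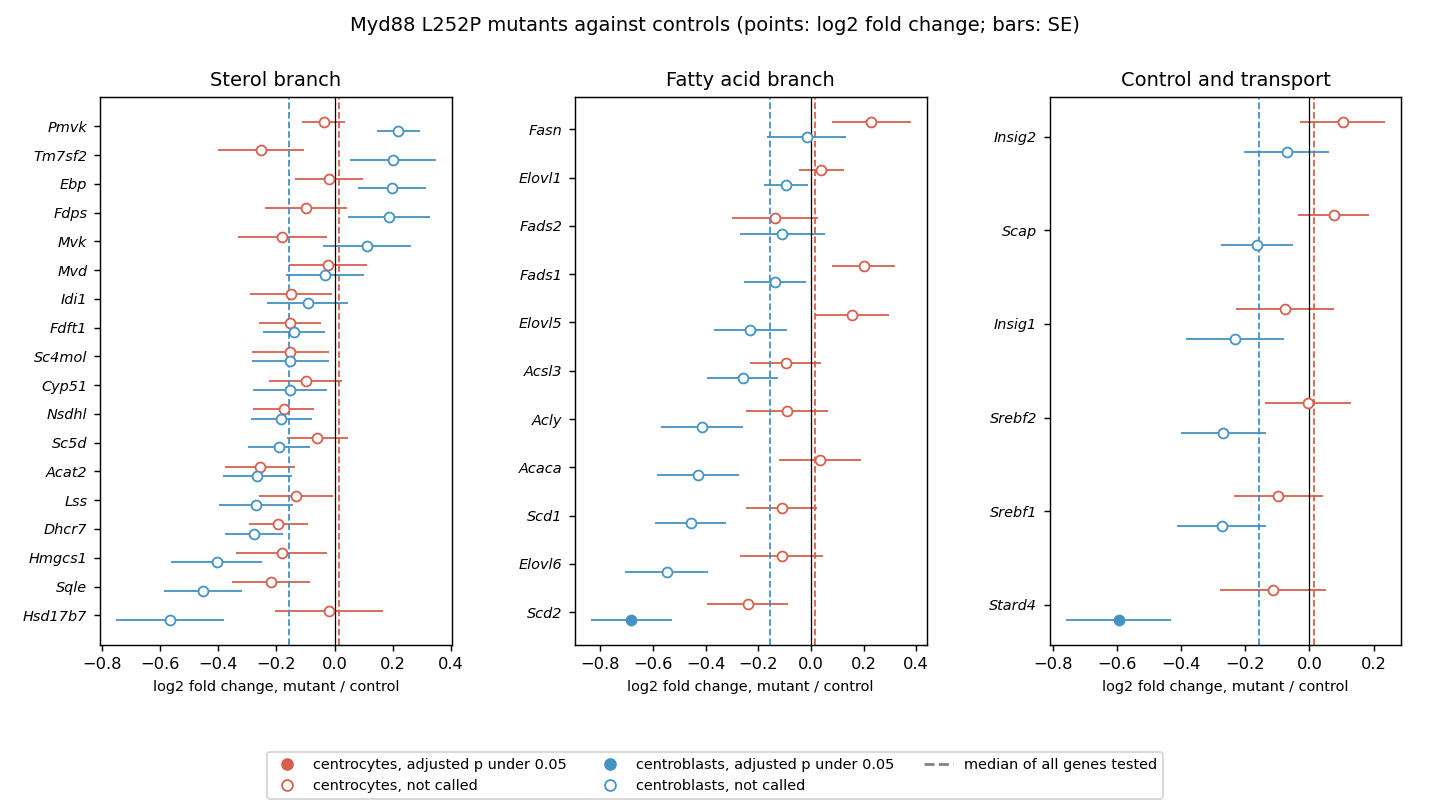
Log2 fold change of each gene, mutants over controls, with its SE, in centrocytes (red) and centroblasts (blue); filled points passed an adjusted p of 0.05 and dashed lines are the medians of all genes tested (0.016 in centrocytes, -0.16 in centroblasts). Scd2 and Stard4 in centroblasts are the only filled points, and all 18 sterol genes are below 0 in centrocytes.

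Other genes around these pathways were followed by 6 lists with 60 genes tested. Of these, 24 (40%) rose and 6 (10%) fell in mutant centrocytes, near the 48.8% and 12.6% of all genes, and 9 (15%) rose and 5 (8.33%) fell in control centrocytes, against 21.2% and 9.48%. Of 11 tested genes of the liver X receptors (LXR), which sense oxysterols, and of sterol export and storage, 8 rose in mutant centrocytes and 0 fell, and in controls 6 rose and 0 fell. After median-of-ratios scaling 8 rose and 1 fell in mutants and 6 rose and 0 fell in controls. In that fit 29.6% of all genes were higher and 28.9% lower in mutants, and 17.9% and 17.7% in controls. Abcg1, a sterol exporter, was at 12.4, 10.9, 13.0, 7.65 and 9.47 TPM in mutant centrocytes, against 1.94, 2.08, 2.50, 0.443 and 0.576 TPM in mutant centroblasts (log2 2.29 ± 0.22 SE, adjusted p = 5.37e-08). Control centrocytes had 6.92, 8.29, 9.95, 6.46 and 6.63 TPM, against 1.29, 1.63, 2.19, 1.28 and 1.19 TPM in control centroblasts (log2 1.78 ± 0.22 SE, adjusted p = 3.93e-06). No centroblast library reached the centrocyte range. The acyltransferase Soat1, which stores cholesterol as ester, rose by 1.22 in mutants and 0.78 in controls. Npc2, which carries cholesterol in lysosomes, rose by 0.69 in mutants and 0.47 in controls. Macrophages also express these genes, and macrophage markers were higher in the same libraries, with C1qa at 15.97 ± 6.34 TPM in mutant centrocytes and 5.25 ± 0.921 TPM in mutant centroblasts, and at 20.1 ± 6.63 TPM in control centrocytes and 4.42 ± 1.35 TPM in control centroblasts (SD, n = 5). Their part in this result was not tested.

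Of 10 genes of SREBP processing and sterol sensing, 4 rose in mutant centrocytes and 1 rose in control centrocytes, with none lower, against 48.8% and 21.2% of all genes higher. The 1 in controls was Fbxw7 (log2 1.04 in mutants and 0.61 in controls), whose product marks nuclear SREBPs for degradation. Of 9 further sterol and isoprenoid enzymes 4 rose in mutants and 1 in controls, with none lower, and after median-of-ratios scaling 2 were higher and 3 lower in mutants and 1 higher and 2 lower in controls. Of all genes, 29.6% were higher and 28.9% lower in mutants after scaling, and 17.9% and 17.7% in controls. Of 10 genes of fatty acid supply and elongation 4 rose and 1 fell in mutants, and 1 rose and 1 fell in controls. In controls these were Acsl4, an acyl-CoA synthetase (0.42), and Mid1ip1, an activator of acetyl-CoA carboxylase (-0.47). Acsl4 was not called after scaling (adjusted p = 0.0569). Of 7 genes of mitochondrial fatty acid synthesis 1 rose and 1 fell in mutants, and in controls limma called 0, with 0 higher and 0 lower at an unadjusted p under 0.05. As deposited, 48.8% of all genes rose and 12.6% fell in mutant centrocytes, and 21.2% rose and 9.48% fell in control centrocytes.

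Fatty acid oxidation is the opposing pathway, and of 13 genes 3 rose and 4 fell in mutant centrocytes and 0 rose and 4 fell in control centrocytes. After median-of-ratios scaling 0 were higher and 10 lower in mutants, and 0 higher and 8 lower in controls, against 28.9% and 17.7% of all genes lower. As deposited, 12.6% and 9.48% of all genes were lower. Cpt1a, which brings fatty acids into mitochondria, averaged 51.5 ± 3.47 TPM in mutant centrocytes and 69.7 ± 20.3 TPM in mutant centroblasts (log2 -0.38 ± 0.15 SE, adjusted p = 0.0381). In controls it averaged 68.9 ± 9.11 TPM in centrocytes and 105 ± 11.4 TPM in centroblasts (log2 -0.60 ± 0.15 SE, adjusted p = 0.00516). Acads and Hadhb, enzymes of beta-oxidation, fell in control centrocytes by 0.44 and 0.33 on the log2 scale.

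Between genotypes, 3 of the 60 genes of these lists (5%) fell in mutant centroblasts, near the 3.38% of all genes, and none was called in centrocytes. The lysosomal lipase Lipa averaged 20.4 ± 5.82 TPM in mutant and 30.1 ± 1.73 TPM in control centroblasts (log2 -0.58, adjusted p = 0.0288). Cpt1a averaged 69.7 ± 20.3 TPM in mutant and 105 ± 11.4 TPM in control centroblasts (log2 -0.63, adjusted p = 0.0273). Rnf139, a sterol-sensing ubiquitin ligase, averaged 39.6 ± 5.80 TPM in mutant and 49.8 ± 2.28 TPM in control centroblasts (log2 -0.34, adjusted p = 0.0387). Mutant libraries 4 and 5 were the lowest of their group for all 3, and without them none of the 3 was called in centroblasts (adjusted p = 0.111 for Lipa, 0.0794 for Cpt1a and 0.11 for Rnf139). In that fit 1 of 13 fatty acid oxidation genes was called higher in mutant centroblasts, against 2.15% of all genes. After median-of-ratios scaling 1 of 13 was called higher there, against 2.51% of all genes. Rnf139 was not called after median-of-ratios scaling (adjusted p = 0.146). In centrocytes Cpt1a averaged 51.5 ± 3.47 TPM in mutants and 68.9 ± 9.11 TPM in controls without overlap (log2 -0.41, adjusted p = 0.299), and it was called there after scaling (adjusted p = 0.0486) and without mutant centroblast libraries 4 and 5 (adjusted p = 0.0174). Both fits also called 1 fatty acid oxidation gene higher and 1 of the other sterol and isoprenoid enzymes lower in mutant centrocytes. The fit without those libraries called 1 LXR list gene higher too. Of all genes there, 1.29% were higher after scaling and 2.28% without those libraries, with 52 of 11355 and 128 of 11352 lower.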

How the data were processed

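Sorted germinal centre B cells of mice gave 20 RNA libraries, made with a stranded kit for mRNA, per the labels' protocols. STAR and build mm10 are named, without versions, per the submitters' processing notes. The deposited tables give TPM per gene symbol for each library. Which annotation and counting tool the authors used is not given in the sources used here. These values keep no depth, so depth and counting error are unknown. Each table fixes the same total, so a few abundant genes lower all others.

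Libraries were grouped by the sort and the genotype in their labels. Comparisons used limma 3.58.1 in R 4.3.3 (eBayes with trend and robust, two-sided) on log2(TPM + 1), with 4 group means over the 20 libraries and 16 residual degrees of freedom, on the 11386 genes that reached 1 TPM in 5 or more libraries. Benjamini-Hochberg adjustment ran over all of them, at 0.05. Fold changes on this scale understate changes of low genes. Values in every library are given for members called in a genotype comparison, for the 5 named regulators and for the 4 called members of each branch with the largest zone difference in controls. From the other lists, genes called between genotypes and up to 3 called genes per list between zones in controls are named. The members and lists were chosen with earlier results of these data known. List counts include some genes that are not reported by name. Positions and promoter windows are from RefSeq, GRCm38.p6. Replicate numbers were not used as pairs. Alternatives were other pseudocounts, filters and scaling, limma without trend and robust, a fit of the compared groups alone, a replicate block, and leaving out libraries. The plots used Python 3.11.15 with matplotlib 3.10.9.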

Additional observations from a re-analysis of the deposited data

Results flagged for a closer look

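In 5 of 140 groups of 5 libraries (3.57%; chance alone flags about 1 in 20), the highest or lowest library lay apart from the rest, by Dixon's ratio with a critical value of 0.710. Acat2 in mutant centroblast library 5 was at 43.6 TPM, below 67.2 to 69.3 TPM in the other 4. Scap in mutant centroblast library 1 was at 27.5 TPM, above 20.4 to 22.2 TPM in the others. Fads2 in control centrocyte library 4 was at 37.0 TPM, above 25.8 to 28.2 TPM. Insig2 in the same library was at 28.5 TPM, above 25.0 to 25.8 TPM. Insig1 in control centroblast library 5 was at 64.9 TPM, below 80.7 to 84.4 TPM in the others.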

How the results depend on the processing

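The number of members called between genotypes in centroblasts (2) was 1 with no filter on low values, 0 with only the libraries compared, 0 without mutant centroblast libraries 4 and 5, and 0 to 14 leaving out 1 library at a time. In centrocytes and for the difference it was 0 in all of these fits. Between zones it was 23 to 26 in mutants (25, all higher) and 13 to 23 in controls (19, all higher) leaving out 1 library. The shares of all genes in the fits that left out 1 library are not given here, so those ranges are not a result about the members. Median-of-ratios scaling gave 20 in mutants (13 higher and 7 lower) and 12 in controls (11 higher and 1 lower). Scaling also gave a sterol mean difference of 0.055 between genotypes in centroblasts and of -0.039 between zones in mutants, against -0.13 and 0.31 as deposited. Between zones it gave 0.33 (fatty acid) in mutants, 0.18 (sterol) and 0.24 (fatty acid) in controls, and -0.058 for Insig2 in controls. Leaving out 1 library, the sterol mean differed by -0.15 to -0.10 (centroblasts) and -0.18 to -0.09 (centrocytes) between genotypes, and by 0.27 to 0.35 (mutants) and 0.28 to 0.34 (controls) between zones. The fatty acid mean differed by -0.40 to -0.20, -0.04 to 0.01, 0.56 to 0.76 and 0.34 to 0.42 in the same order. The cause was not tested. Same-numbered libraries of the zones deviated together over 0.1 in 4 of 5 pairs in each genotype, and 2 of 5 in mutants and 4 of 5 in controls correlated best with their own number. Mutant and control libraries of the same number were over 0.1 in 1 of 5 pairs in centroblasts (mean correlation -0.0077) and 3 of 5 in centrocytes (0.113). With the number as replicate block, genotype calls were 4 in centroblasts (Scd2, Stard4, Sqle and Elovl6, all lower) and 0 in centrocytes. Of all 11386 genes, that fit called 165 higher and 628 lower in mutant centroblasts, against 103 and 385 without the block. It called 0 members for the difference, and 26 in mutants and 17 in controls between zones, all higher. Of all genes, 51.4% were higher in mutant and 26.4% in control centrocytes in that fit. Depth is unknown, so its effect on scarce members such as Elovl6 and Acaca could not be given.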

Other observations

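Across the 35 genes, the longest annotated transcript (GENCODE M21) had a Spearman rho of -0.53 with the shift of mutant centroblast libraries 4 and 5 against libraries 1 to 3. With the genotype difference in centroblasts rho was -0.64, with the zone difference in mutants 0.68 and with the zone difference in controls 0.39. These are descriptions over 35 genes that share their libraries, and genes are not independent replicates. Pmvk, with a longest transcript of 1194 bases, had a genotype difference of 0.22 in centroblasts. The shared mutant centroblast libraries enter 3 of the 4 measures, and the part of transcript length in them was not tested.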
